A study of Mus musculus with 6 samples.

Results

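The intraflagellar transport B (IFT-B) genes described here are Ift20, Ift27, Ift46, Ift52, Ift57, Ift74, Ift80, Ift81, Ift88 and Ift172. These 10 genes, of 55353 in the files, were taken as subunits of the complex and matched exactly by symbol. They were measured in whole testes taken on postnatal day 14 from 3 mice labelled Rnu11 cKO, called mutants below, and from 3 control mice. Rnu11 encodes U11, an RNA of the minor spliceosome, and the libraries were made from total RNA after ribosomal RNA depletion. The Cre line, the cells in which Rnu11 was deleted, and the alleles that the controls carried are not given in the labels used here. The age and the tissue are common to both groups. The authors deposited TPM (scaled transcript abundance), a level per transcript length. How many reads lie behind a value is unknown, because TPM values carry no depth.

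Intraflagellar transport moves building blocks along the microtubules of a cilium or flagellum. The IFT-B complex works with kinesin-2 in transport towards the tip and carries tubulin, and the IFT-A complex with cytoplasmic dynein-2 serves the return. In the mouse testis several IFT-B subunits are known to be needed for the sperm tail, which is built in spermatids, after meiosis. Most introns are removed by the major spliceosome, whereas a small class, the minor introns, is recognised at its start by U11. Of the 10 genes, Ift80 holds a minor intron.

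Rnu11 itself was at 196 to 393 TPM in mutants and at 550.3 to 614 TPM in controls (log2 difference −1.21, SE 0.26, limma adjusted p = 0.29), so its groups did not overlap and RNA of the targeted gene was still present in every mutant testis. Between 30113 and 33476 genes were above 0 in mutants, and between 30878 and 34510 in controls. The 7SL RNA gene Rn7s2 alone took 27.1% to 30.5% of the TPM in mutants and 26.9% to 30.5% in controls. Sertoli, Leydig, spermatogonial and early meiotic markers were all present in the libraries. The spermatid genes Prm1, Prm2, Tnp1, Tnp2, Acrv1 and Tssk1 averaged under 1 TPM over the 6 libraries. All differences below are mutant minus control on the log2(TPM + 1) scale unless another scale is named.

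No IFT-B gene passed limma's test over all genes tested (adjusted p under 0.05), which called 0.0278% of 17959 genes. Of the 10 genes, 9 had a lower mean on the log2 scale in mutants and 1, Ift20, a higher one, whereas 33.6% of all genes tested were lower. Their median log2 difference was −0.16, against 0.094 over all genes tested, and it was −0.15 over the 9 genes other than Ift80. Leaving out mutant 2 gave a median of −0.29, and leaving out mutant 3 gave −0.11. Ift27, Ift88 and Ift80 had every mutant below every control, as did 5.77% of all genes tested. The same 3 genes had a limma p under 0.05 before adjustment with a lower mutant level, as did 3.98% of all genes tested. Control 2 was the lowest control for 8 of the 10 genes, and mutant 2 the highest mutant for 8 of the 10. In whole testis, fewer cells of a type and less RNA per cell cannot be told apart.

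**Figure D1:**
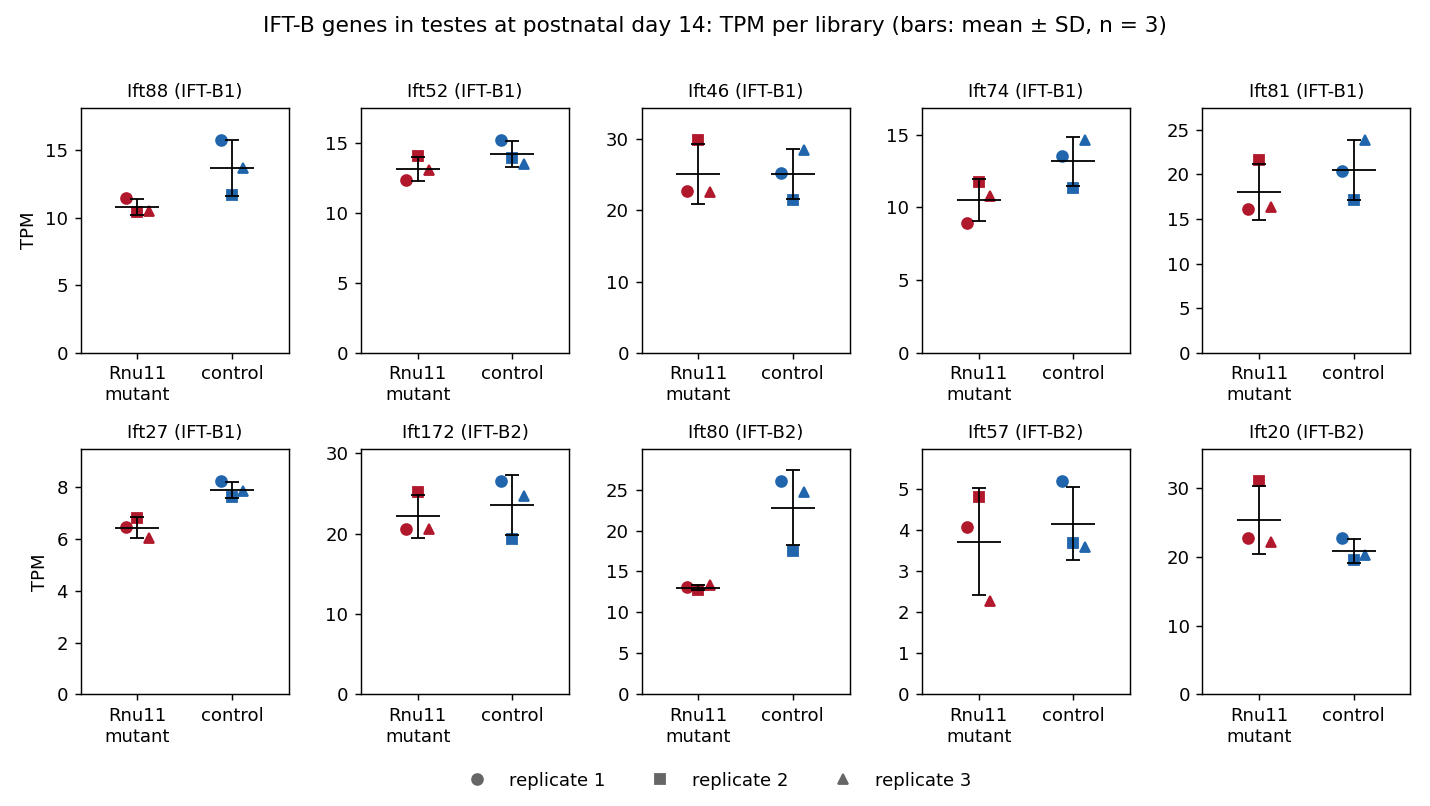
TPM of the 10 IFT-B genes in each library, mutants left of controls, with bars for the mean ± SD (n = 3 each). Ift80 stands at 12.7 to 13.3 TPM in mutants and at 17.5 to 26.0 TPM in controls, while most other genes overlap between the groups.

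The core of the complex (IFT-B1) binds cargo and holds the tubulin-binding pair Ift74 and Ift81. Ift81 (chr5:122550204-122614518, minus strand, GRCm38 here and below) was at 16.1, 21.6 and 16.4 TPM in mutants, against 20.3, 17.2 and 23.9 TPM in controls. Its partner Ift74 (chr4:94614491-94693229, plus strand) was at 8.90, 11.7 and 10.8 TPM in mutants, against 13.5, 11.4 and 14.6 TPM in controls. For both genes the groups overlapped: control 2 lay within the mutant range in both, and control 1 in Ift81. The log2 difference was −0.30 for Ift74 (SE 0.14, adjusted p = 0.32) and −0.17 for Ift81 (SE 0.16, adjusted p = 0.57).

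Ift88, a core scaffold known from the polycystic kidney mouse Tg737, gave one of the clearer differences of the core. Ift88 (chr14:57424062-57517936, plus strand) was at 11.5, 10.4 and 10.5 TPM in mutants and at 15.8, 11.6 and 13.7 TPM in controls. The groups did not overlap, but mutant 1 lay just below control 2. Ift88 averaged 10.8 ± 0.579 TPM in mutants and 13.7 ± 2.06 TPM in controls (SD, n = 3 each; log2 difference −0.31, SE 0.12, limma adjusted p = 0.30). The annotated genes Gm15836 and Ift88os, on the other strand, overlap Ift88, and the sources used here do not say whether the counting used strand. Annotated genes on the other strand also overlap Ift74 (Lrrc19), Ift81 (Gm43301) and Ift57 (Gm15518).

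Ift27, a small GTPase of the core that also helps the BBSome leave the cilium, was lower in every mutant. Ift27 (chr15:78159463-78174107, minus strand) was at 6.47, 6.83 and 6.04 TPM in mutants, against 8.23, 7.63 and 7.86 TPM in controls. The highest mutant, mutant 2, lay below the lowest control, control 2. The mean was 6.45 ± 0.395 TPM in mutants and 7.91 ± 0.306 TPM in controls (SD, n = 3 each; log2 difference −0.26, SE 0.091, limma adjusted p = 0.29).

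The other core genes were close between the groups. Ift52, which anchors several core subunits, was at 12.3, 14.1 and 13.1 TPM in mutants, against 15.2, 13.9 and 13.5 TPM in controls (chr2:163017354-163046141, plus strand). Ift46, a core subunit known in Chlamydomonas for the transport of outer dynein arms, was at 22.6, 29.9 and 22.6 TPM in mutants, against 25.3, 21.4 and 28.5 TPM in controls (chr9:44767908-44793447, plus strand). Both genes overlapped between groups, with log2 differences of −0.10 for Ift52 (SE 0.094, adjusted p = 0.57) and −0.0036 for Ift46 (SE 0.15, adjusted p = 0.99). The sign for Ift46 depended on single libraries, ranging from −0.13 without mutant 2 to 0.090 without control 3, and it was above 0 without control 1, control 3, mutant 1 or mutant 3.

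The peripheral part (IFT-B2) links the complex to its motor and to the Golgi. Ift20, the subunit that also sits at the Golgi, was the single gene of the 10 with a higher mean in mutants. Ift20 (chr11:78536361-78541737, plus strand) was at 22.8, 31.0 and 22.2 TPM in mutants, against 22.8, 19.5 and 20.3 TPM in controls. The groups overlapped through control 1, and mutant 2 was well above the rest. The log2 difference was 0.25 (SE 0.14, adjusted p = 0.39), and it was 0.10 without mutant 2.

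Ift172, the largest peripheral subunit, was at 20.6, 25.2 and 20.6 TPM in mutants, against 26.5, 19.3 and 24.7 TPM in controls (chr5:31253277-31291116, minus strand). Ift57, a peripheral coiled-coil subunit and the lowest of the 10 genes, was at 4.08, 4.82 and 2.29 TPM in mutants, against 5.20, 3.69 and 3.61 TPM in controls (chr16:49699233-49765126, plus strand). In both genes the mutants and controls overlapped. The log2 difference was −0.078 for Ift172 (SE 0.14, adjusted p = 0.79), and it was 0.011 without control 1. For Ift57 it was −0.15 (SE 0.23, adjusted p = 0.74), and 0.088 without mutant 3.

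Ift80, a peripheral subunit whose human gene is mutated in Jeune thoracic dystrophy, gave the largest difference of the 10 genes. Ift80 (ENSMUSG00000027778.15, chr3:68892499-69004570, minus strand) was at 13.1, 12.7 and 13.3 TPM in mutants, against 26.0, 17.5 and 24.7 TPM in controls. The 3 mutants lay close together, all controls were above them, and control 2 was the nearest to them. Ift80 averaged 13.0 ± 0.322 TPM in mutants and 22.8 ± 4.57 TPM in controls (SD, n = 3 each), a ratio of the means of 0.573. The log2 difference was −0.74 (SE 0.15, limma adjusted p = 0.29), so Ift80 did not pass the threshold over all genes. An exact two-sided permutation test over the 6 libraries gave p = 0.1, the smallest it can give with 3 against 3. Among the genes tested, 1.77% had a log2 difference this low or lower and 0.451% a limma p this small or smaller. Leaving out control 2 gave −0.91 and leaving out control 1 gave −0.64. The gene overlaps Gm20689, Gm18588, Gm20691 and Gm48183 on its own strand, and Gm20690 on the other.

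Since TPM is a level per length, the genes can also be ranked against each other. In mutants the order by mean TPM was Ift20, Ift46, Ift172, Ift81, Ift52, Ift80, Ift88, Ift74, Ift27 and Ift57. In that order the ranges of neighbours were apart between Ift81 and Ift52, between Ift80 and Ift88, between Ift74 and Ift27, and between Ift27 and Ift57. In controls the order was Ift46, Ift172, Ift80, Ift20, Ift81, Ift52, Ift88, Ift74, Ift27 and Ift57, with neighbours apart between Ift81 and Ift52, between Ift74 and Ift27, and between Ift27 and Ift57. Ift80 was thus at rank 6 in mutants, beside Ift52, and at rank 3 in controls, within the upper group.

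Ift80 made up 9.49%, 7.54% and 9.65% of the summed TPM of the 10 genes in mutants, against 14.5%, 12.3% and 14.1% in controls. Its share did not overlap between groups (8.89% ± 1.18 in mutants and 13.6% ± 1.22 in controls, SD, n = 3 each). The sum of the 9 other genes did overlap, at 125, 156 and 125 TPM in mutants and 153, 126 and 151 TPM in controls. The authors' deposited table holds 2 log2 fold changes, mutant over control, headed as confident and as single run, which are −0.79 and −0.80 for Ift80. For the other 9 genes the confident values in the authors' deposited table run from −0.39 for Ift74 to 0.090 for Ift20. The single run values in the authors' deposited table run from −0.34 for Ift88 to 0.28 for Ift20.

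The minor intron of Ift80 lies between exons 2 and 3 of the coding isoform Ift80-208, which has 20 exons. It is 3537 nt long and is annotated in GENCODE M21 at chr3:68990964-68994500 in Ift80-201 and Ift80-202, and 2 nt further along the transcript, at chr3:68990962-68994498, in Ift80-208. Both placements join to the same exon sequence. The following sequences are shown because they carry the signals that mark the intron class, and because the retained intron brings an early stop; they were read 5′ to 3′ on the minus strand from the GENCODE M21 transcripts (GRCm38). In the first, which ends exon 2 and begins the intron, capitals mark the first 8 bases of the intron. In the next, which ends the intron and begins exon 3, capitals mark a TCCTTGA element and the last 2 bases of the intron. The last line joins the exons.
Ift80 exon 2 end and intron start (chr3:68994471-68994520): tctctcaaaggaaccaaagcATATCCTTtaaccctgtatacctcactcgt
Ift80 intron end and exon 3 start (chr3:68990939-68991023): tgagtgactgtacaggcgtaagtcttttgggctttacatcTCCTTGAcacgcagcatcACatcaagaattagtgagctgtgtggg
Ift80 joined exons 2 and 3: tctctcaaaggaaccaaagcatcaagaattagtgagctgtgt

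As placed in Ift80-201 the intron starts with AT and ends with AC. Its first 8 bases, ATATCCTT, are the sequence that U11 is known to pair with, and TCCTTGA, a form of the branch element of minor introns, has its last A 13 nt from the intron's end. The transcript files hold the bases of an intron only where another transcript keeps it, which was so for 14459 of 250875 introns of protein-coding genes. Of these 14459, 0.104% start with ATATCCTT and 0.574% have TCCTTGA within their last 40 nt, and 0.0415% have both. The search ran on the transcript's own strand, at the first base for ATATCCTT and anywhere in that window for TCCTTGA. GTATCCTT, the same start with GT in place of AT, opens 0.284% of the 14459. Of the 188 introns of the other 9 IFT-B genes, 6 could be read and all 6 began with GT and ended with AG. Such ends alone do not set the class of an intron, but none of the 6 began with ATATCCTT or GTATCCTT. A short intron of Ift80 itself, 385 nt long at chr3:68918105-68918489, begins with GT and ends with AG. It is shown for comparison, with capitals on its first 8 bases and on its last 2.
Ift80 385-nt intron start (chr3:68918460-68918509): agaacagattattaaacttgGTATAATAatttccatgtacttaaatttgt
Ift80 385-nt intron end (chr3:68918105-68918144): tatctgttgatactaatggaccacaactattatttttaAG

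A single annotated isoform, Ift80-204, keeps the minor intron whole. Read from the start codon of the coding isoforms, its frame meets a stop at bases 9 to 11 of the intron, after 15 codons, whereas Ift80-208 runs for 777 codons. Capitals mark the start and the stop.
Ift80-204 from start to stop (chr3:68994490-68994537): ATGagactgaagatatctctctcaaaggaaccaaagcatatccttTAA

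**Figure D2:**
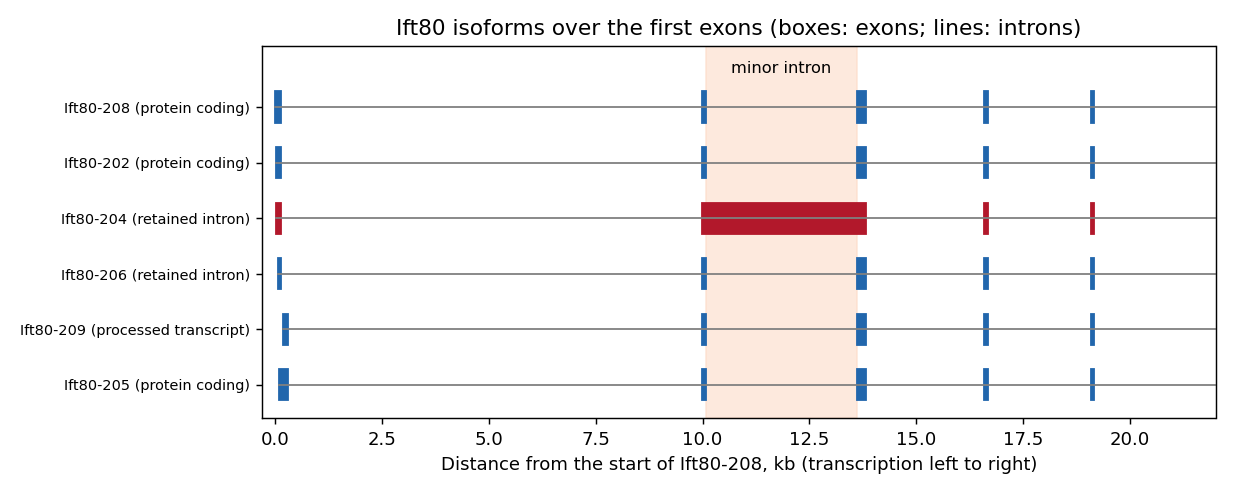
Exons (boxes) and introns (lines) of Ift80 isoforms over the first part of the gene, by distance from the start of Ift80-208 in kb along transcription, with the minor intron shaded. Ift80-204 (red) keeps the 3537-nt intron as exon, and the other isoforms drawn splice it.

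The isoforms that splice the minor intron were lower in mutants, while the isoform that keeps it differed less. The spliced isoforms summed to 6.34, 6.03 and 6.25 TPM in mutants, against 15.0, 9.32 and 15.5 TPM in controls. Ift80-204, with the intron kept, was at 2.58, 2.26 and 2.76 TPM in mutants, against 3.07, 3.02 and 3.32 TPM in controls. Both sums had every mutant below every control, and the spliced sum was further apart. The isoform with the intron kept therefore made up 28.9%, 27.3% and 30.6% of the TPM across the intron in mutants, against 17.0%, 24.5% and 17.6% in controls.

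That share was 28.9% ± 1.67 in mutants and 19.7% ± 4.13 in controls (SD, n = 3 each), with every mutant above every control, as in 5.98% of all introns tested. The log2 ratio of spliced to unspliced TPM differed by −0.75 (SE 0.24, limma adjusted p = 0.86), so it did not pass the threshold. Over all 44513 introns tested, 0.0157% passed it and 6.93% had a log2 ratio difference this low or lower. Leaving out control 2 gave a difference of −0.96 and leaving out control 1 gave −0.63. The ratio counts both annotated placements as spliced. With the placement of Ift80-201 alone, which counts Ift80-208 as unspliced, the difference was 0.075. Libraries of total RNA also hold precursors, so Ift80-204 and unspliced precursor RNA cannot be told apart.

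**Figure D3:**
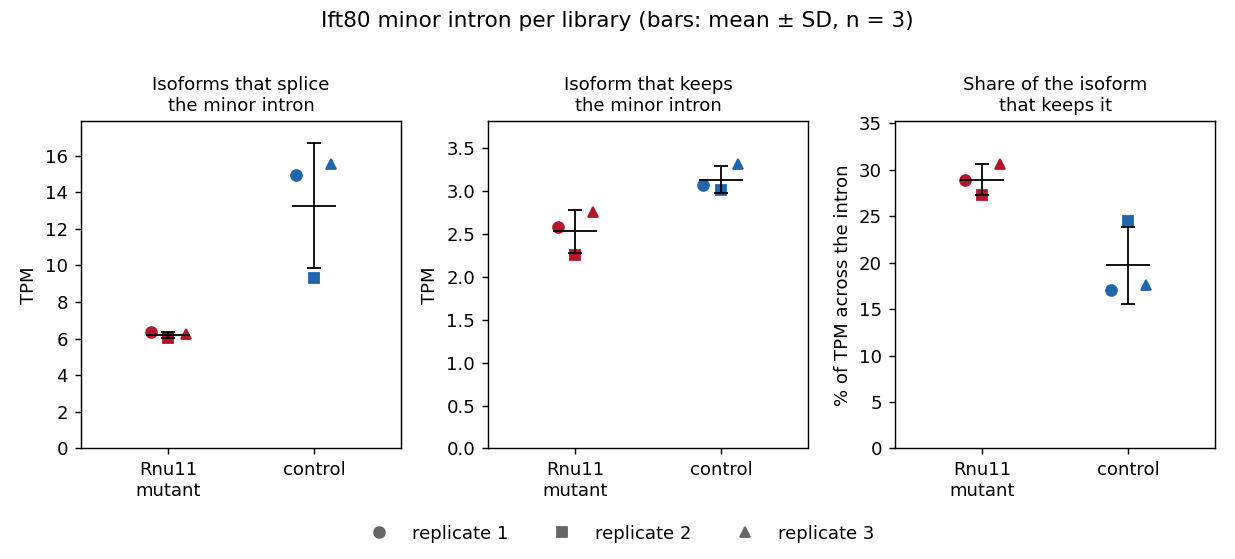
Summed TPM of the Ift80 isoforms that splice the minor intron, TPM of the isoform that keeps it, and the percent of the TPM across the intron that the kept form holds, per library with mean ± SD (n = 3 each). In mutants the share is 27.3% to 30.6%, and in controls 17.0% to 24.5%, with control 2 nearest to the mutants.

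In the test over all introns, any isoform that crosses an intron without splicing it at exactly that position counted as unspliced, so isoforms with other junctions are included and many rows mirror each other. Nothing is therefore read from counts over introns, and the shares of all introns given for the minor intron include such junctions. For the Ift80 minor intron the unspliced side is Ift80-204 alone, which keeps it whole. For the 385-nt intron with GT and AG ends, which Ift80-206 keeps whole, the unspliced share was 5.94% ± 1.78 in mutants and 5.69% ± 0.667 in controls (SD, n = 3 each). Its log2 ratio difference was −0.13 (SE 0.25, limma adjusted p = 0.95), and the groups overlapped. No intron of the other 9 genes, of 39 tested, passed limma's test. The Ift46 junction at chr9:44773785-44778561, named after its values were seen, differed further than the Ift80 minor intron (log2 ratio difference −1.27, SE 0.23, limma adjusted p = 0.53). The isoforms that do not use the Ift46 junction held 66.3% ± 0.663 in mutants and 43.3% ± 6.40 in controls (SD, n = 3 each), with every mutant above every control. Its levels are low: the isoforms that use it averaged 0.855 TPM in mutants and 1.52 TPM in controls as a sum. For the Ift80 minor intron the spliced sums averaged 6.21 and 13.3 TPM. Ift46 isoforms not matched to GENCODE M21 are left out of these values.

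Ift80-208 is the main coding isoform of the gene, with 44.1% of the gene's TPM, and it was at 5.21, 5.51 and 5.23 TPM in mutants, against 11.7, 7.98 and 11.8 TPM in controls. All mutants were below all controls (log2 difference −0.84, SE 0.16, limma adjusted p = 0.36). Limma called 0.0136% of 44197 isoforms tested. Ift80-210 averaged 2.91 ± 0.0137 TPM in mutants and 4.20 ± 1.35 TPM in controls (SD, n = 3 each; log2 difference −0.38, limma adjusted p = 0.47). Ift80-209 was at 0.700 TPM in mutant 1, listed at 0 in mutant 2 and at 0.322 TPM in mutant 3, against 1.80, 0.733 and 2.58 TPM in controls. Its log2 difference of −0.98 (SE 0.32, limma adjusted p = 0.43) was further from 0 than that of Ift80-208, at a lower level. Of the 12 annotated Ift80 isoforms, 5 were high enough to test, all 5 were lower in mutants, and 4 had every mutant below every control, as did 5.17% of all isoforms tested. Ift80-209 and Ift80-212 averaged 0.341 and 0.906 TPM in mutants, and 1.02 and 1.01 TPM over the 6 libraries. They passed the filter of 1 TPM only through the controls, which favours a lower mutant value, so nothing is read from these counts. Ift80-202 and Ift80-207 were listed at 0 in every library.

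As a share of the gene, the retained-intron isoform Ift80-204 held 19.4% ± 1.48 of Ift80 TPM in mutants and 14.1% ± 2.76 in controls (SD, n = 3 each). The log2 difference of its TPM over that of the gene's other isoforms was 0.57 (SE 0.21, limma adjusted p = 0.86). The share of Ift80-208 was 40.8% ± 2.31 in mutants and 46.0% ± 1.35 in controls, with a log2 difference of −0.30 (SE 0.16, limma adjusted p = 0.86). Ift80-212 and Ift80-210 also retain introns but do not cross the minor intron. The share of Ift80-212 was 6.96% in mutants and 4.96% in controls (log2 difference 0.56, limma adjusted p = 0.86), higher in every mutant. In controls it averaged under the filter of 5%. For Ift80-210 it was 22.3% in mutants and 18.6% in controls (log2 difference 0.37, limma adjusted p = 0.87). Limma called 0.0112% of the 35634 isoform shares tested, and none of these shares among them.

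Over the 10 genes 71 isoforms are annotated and 38 were tested, and none passed limma's test. Of these 38, 27 were lower in mutants, against 37% of all isoforms tested, and 11 were higher. Some of the 27 passed the filter of 1 TPM only through the controls, which favours a lower mutant value. Some of the 11 passed it only through the mutants, which favours a higher one. Nothing is therefore read from these counts. Ift20-202, a coding isoform, was at 9.83, 14.5 and 10.2 TPM in mutants, against 8.13, 6.53 and 8.64 TPM in controls. All mutants were above all controls, as for 11.6% of all isoforms tested (log2 difference 0.50, SE 0.18, limma adjusted p = 0.43). The other main coding isoform, Ift20-203, averaged 9.04 ± 1.57 TPM in mutants and 8.63 ± 1.12 TPM in controls (SD, n = 3 each), with overlapping groups. The share of Ift20-202 in the gene was 45.4% ± 1.89 in mutants and 37.2% ± 4.74 in controls, with adjusted p = 0.86.

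The main coding isoform of Ift74, Ift74-201, averaged 7.26 TPM in mutants and 9.59 TPM in controls (log2 difference −0.36, limma adjusted p = 0.44). Ift88-201, the main coding isoform of Ift88, averaged 5.78 ± 0.872 TPM in mutants and 7.52 ± 1.56 TPM in controls (SD, n = 3 each). Ift88-204, a retained-intron isoform, was at 2.13, 1.58 and 1.54 TPM in mutants and 1.40, 1.36 and 1.42 TPM in controls. Its share of Ift88 TPM was 18.5%, 15.2% and 14.6% in mutants, against 8.87%, 11.7% and 10.4% in controls, with every mutant above every control as for 5.78% of all shares tested (log2 share difference 0.72, SE 0.20, limma adjusted p = 0.86). Ift80-204 and Ift88-204, each with the smallest share p-value of its gene, are retained-intron isoforms whose share was higher in every mutant. Of 17 retained-intron shares tested over the 10 genes, 7 were lower in mutants. Only 2 of the 28 introns of Ift88 could be read, and both began with GT and ended with AG. The part of the intron class in these shares was not tested. For Ift46, 4.29 to 9.20 TPM of the gene per library belonged to isoforms not matched to GENCODE M21, so its isoforms are known in part.

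The rest of the transport machinery was read from lists of textbook members, and no gene in them passed limma's test. The counts of lower genes in these lists stand beside 33.6% lower over all genes tested. Of 8 further IFT-B subunits, 7 were lower in mutants and 1 was higher (median log2 difference −0.26). Hspb11, the partner of Ift27, averaged 9.57 ± 0.813 TPM in mutants and 11.5 ± 1.20 TPM in controls (log2 difference −0.24, limma adjusted p = 0.33). Ttc26 averaged 4.06 ± 0.205 TPM in mutants and 5.58 ± 1.38 TPM in controls (log2 difference −0.36, limma adjusted p = 0.33). Traf3ip1, a peripheral subunit, was at 4.02, 3.89 and 3.69 TPM in mutants and at 5.45, 4.05 and 4.86 TPM in controls, with all mutants lower. These spreads are SDs over 3 libraries each, as in the following lists.

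Among 7 genes listed for IFT-A, of the return transport, 4 were lower in mutants and 3 were higher (median log2 difference −0.13). Tulp3, an adaptor that binds IFT-A and not a subunit, is counted among the higher genes (log2 difference 0.20). Ift43, an IFT-A subunit, was at 12.9, 16.4 and 13.0 TPM in mutants, against 11.9, 8.99 and 9.10 TPM in controls. All mutants were above all controls, as for 14.5% of all genes tested (log2 difference 0.46, SE 0.15, limma adjusted p = 0.29). Wdr35 averaged 7.19 ± 0.720 TPM in mutants and 10.4 ± 2.37 TPM in controls (log2 difference −0.45, limma adjusted p = 0.29). Ttc21b averaged 14.6 ± 0.745 TPM in mutants and 16.3 ± 0.772 TPM in controls (log2 difference −0.14, limma adjusted p = 0.41).

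Of 9 motor genes, 8 were lower in mutants and 1 was higher (median log2 difference −0.22). Kifap3, the non-motor subunit of kinesin-2, was at 4.22, 4.19 and 4.37 TPM in mutants, against 6.58, 5.14 and 5.85 TPM in controls. Its groups did not overlap (log2 difference −0.38, SE 0.11, limma adjusted p = 0.29). Wdr34, a dynein-2 intermediate chain, averaged 18.7 ± 1.31 TPM in mutants and 22.6 ± 1.32 TPM in controls (log2 difference −0.26, limma adjusted p = 0.29). Dync2h1, the dynein-2 heavy chain, averaged 15.9 ± 0.913 TPM in mutants and 18.7 ± 1.77 TPM in controls (log2 difference −0.22, limma adjusted p = 0.32). These 3 genes were named for the smallest p-values of the list, which favours groups that do not overlap. Over the whole list, 3 of 9 motor genes had every mutant below every control, as did 5.77% of all genes tested.

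For the BBSome, a cargo adaptor that rides on the IFT trains, 10 genes were listed, with Arl6 and Lztfl1 counted in beside its subunits. Their median log2 difference was −0.071, and 8 of the 10 were lower in mutants. Bbs1 averaged 7.56 ± 0.301 TPM in mutants and 8.76 ± 1.07 TPM in controls (log2 difference −0.18, limma adjusted p = 0.40). Arl6, the GTPase that recruits the BBSome, averaged 10.1 ± 0.528 TPM in mutants and 11.5 ± 1.69 TPM in controls (log2 difference −0.16, limma adjusted p = 0.48). Bbs9 averaged 15.9 ± 2.13 TPM in mutants and 17.2 ± 1.36 TPM in controls (log2 difference −0.11, limma adjusted p = 0.62). No gene of the BBSome list was free of overlap between the groups.

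**Figure D4:**
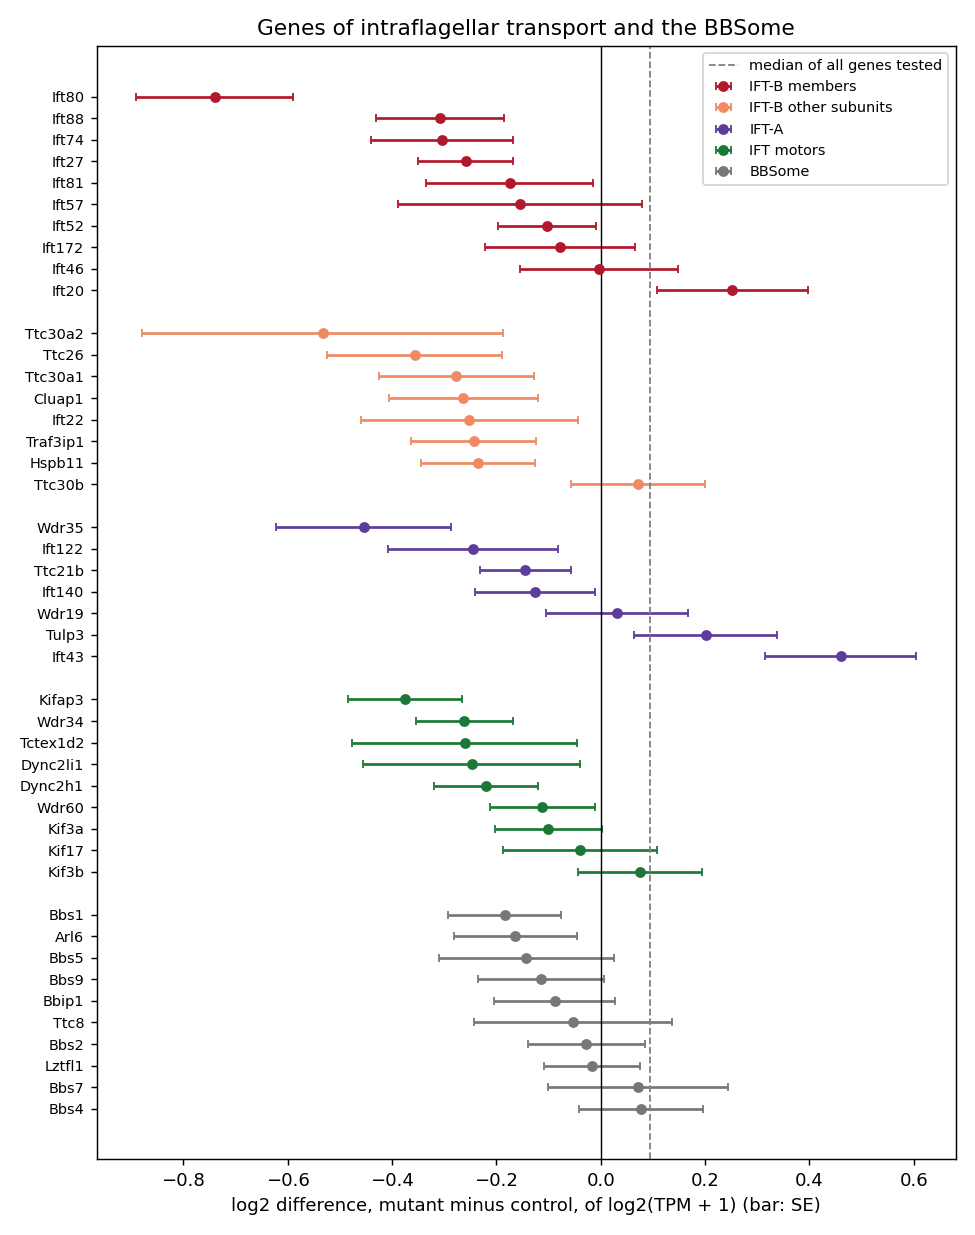
Log2 differences (mutant minus control, log2(TPM + 1) scale) of each gene listed for the IFT-B complex, IFT-A, the motors and the BBSome, with bars for the limma SE and a dashed line at the median of all genes tested, 0.094. Ift80 is the lowest point at −0.74 and Ift43 the highest at 0.46.

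Genes of the motile axoneme, the microtubule core of the sperm tail, formed a further list. Of 12 such genes tested, 9 were lower in mutants and 3 were higher (median log2 difference −0.55), and 4 had a limma p under 0.05 before adjustment, all lower, as did 3.98% of all genes tested. Rfx2, a transcription factor of ciliary genes needed in mouse spermatids, was at 7.05, 6.37 and 7.88 TPM in mutants, against 12.9, 8.29 and 14.4 TPM in controls. Its groups did not overlap (log2 difference −0.64, SE 0.20, limma adjusted p = 0.29). Rsph1, a radial spoke protein, was at 16.9, 14.7 and 23.6 TPM in mutants, against 48.6, 19.6 and 44.2 TPM in controls (log2 difference −0.91, limma adjusted p = 0.30). Spag16, of the central pair, averaged 0.441 ± 0.317 TPM in mutants and 1.69 ± 0.927 TPM in controls (log2 difference −0.86, limma adjusted p = 0.29). It passed the filter of 1 TPM only through the controls, which favours a lower mutant value, so its difference is not read as a result. Spag16 is counted among the 9 lower genes and the 4 with a limma p under 0.05. In Rsph1 and Spag16, control 2 lay within the mutant range.

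Markers of several cell types also had different sums in the groups, and none of their genes passed limma's test. Counts of lower and higher markers stand beside 33.6% lower over all genes tested, whose median log2 difference was 0.094, so most genes were higher in mutants. The summed TPM of 12 leptotene and zygotene markers was 306 to 391 in mutants and 440.4 to 547 in controls, with all 12 lower in mutants and a median log2 difference of −0.64. The summed TPM of 10 pachytene markers was 129 to 153 in mutants and 133 to 260 in controls, and control 2, at 133, lay within the mutant range. The 8 of them tested were all lower (median log2 difference −0.64). The 12 Sertoli markers summed to 2359 to 3022 TPM in mutants and to 1717 to 1964 TPM in controls, and all 12 were higher. The 8 Leydig markers, at 295 to 449 TPM in mutants and 160 to 284 TPM in controls, were all higher as well.

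Spermatogonial markers summed to 199.5 to 205 TPM in mutants and 217 to 232 TPM in controls, with 7 of 10 lower. Round spermatid markers were low throughout, at 4.55 to 6.25 TPM in mutants and 5.23 to 7.10 TPM in controls. Peritubular myoid markers gave 205 to 247 TPM in mutants and 171 to 238 TPM in controls. Macrophage markers gave 40.3 to 58.1 TPM in mutants and 28.3 to 45.1 TPM in controls, and endothelial markers 25.9 to 35.8 TPM in mutants and 25.0 to 31.4 TPM in controls. No marker on any list was at 0 in every library. The part of cell composition in the lower Ift80 level was not tested.

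**Figure D5:**
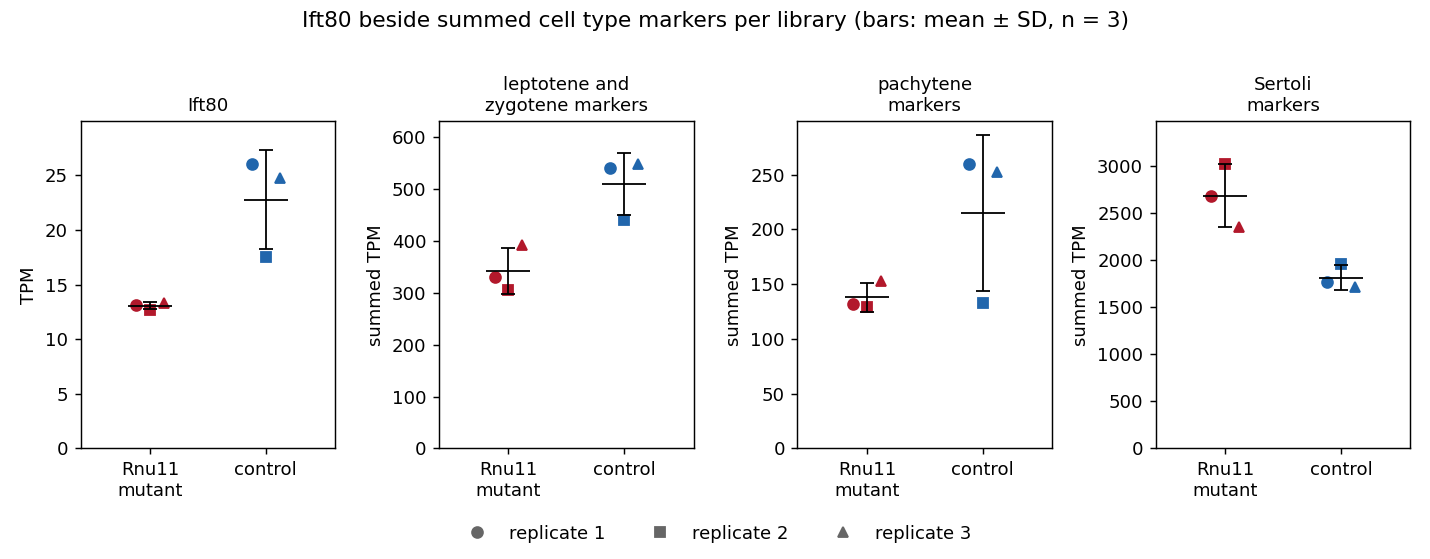
TPM of Ift80 and summed TPM of leptotene and zygotene, pachytene and Sertoli markers per library, mutants left of controls, with mean ± SD (n = 3 each). Control 2 (square) is the lowest control for Ift80 (17.5 TPM), for the leptotene and zygotene sum (440.4 TPM) and for the pachytene sum (133 TPM).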

How the data were processed

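In brief, whole-testis total RNA was depleted of ribosomal RNA and made into stranded libraries, per the labels' protocols, and the submitters' processing notes name HISAT2 and GRCm38. No source used here gives the quantification tool. The authors deposited TPM for genes and isoforms, library by library, and, per the file headers, a table of group means and log2 fold changes. Each library was taken as 1 animal, since the series' design text speaks of animals. The 10 genes and all lists were chosen with earlier results of these data known.

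Limma 3.58.1 in R 4.3.3 (lmFit, then eBayes with trend) tested log2(TPM + 1) of every gene averaging 1 TPM or more, two-sided and without a block, with Benjamini-Hochberg adjustment over all genes and a threshold of 0.05. Isoforms were tested alike. Log2 differences understate the change of genes near 1 TPM. An isoform's share was its TPM over that of the gene's other isoforms, each plus 0.1, on the log2 scale. It was tested without trend where the gene averaged 5 TPM and the isoform held 5% to 95% of it. Introns were tested alike, as spliced over unspliced TPM, where both sums averaged at least 0.5 TPM. Introns of a gene with both ends shifted by the same 1 to 5 nt were counted as 1, a choice made after the annotation was read. Isoform structures came from GENCODE M21, which matched 141429 of 142647 isoforms. Fits were tested on simulated data. Alternatives were another pseudocount, other filters, median-ratio scaling, scaling to nuclear protein-coding genes, a fit without trend, a replicate block and leaving out each library. Named genes were all 10 members and up to 3 of each list by smallest p-value. Named isoforms averaged at least 1 TPM and 10% of their gene, or had the smallest share p-value of their gene; not every one is printed, and Ift80-209 was added after its values were seen.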

Additional observations from a re-analysis of the deposited data

How the results depend on the processing

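No IFT-B gene, isoform or isoform share was called by limma under any alternative run. Ift80 stayed lower in mutants in all 13 alternatives, with log2 differences of −0.91 to −0.64 and adjusted p of 0.071 to 0.62. Leaving out single libraries gave −0.13 to 0.090 for Ift46, −0.32 to 0.088 for Ift57, −0.21 to 0.011 for Ift172, and 7 to 9 lower genes of the 10. Their median log2 difference was −0.27 with median-ratio scaling and −0.32 with scaling over protein-coding genes, which moved the median of all genes from 0.094 to −0.0026 and −0.028. The count of all genes called, 5 as reported (1 higher, 4 lower), was 3 with a filter of 5 TPM, 3 with median-ratio scaling (0 higher, 3 lower), 0 without a filter, 3 without trend, 8 with a pseudocount of 0.1 TPM and 0 with the replicate block, and 2 to 8 when single libraries were left out. Such a block gave −0.74 for Ift80 (SE 0.13, limma adjusted p = 0.19). Correlations of deviations between same-numbered libraries were −0.069, 0.035 and 0.077 over all genes tested. In both groups library 2 had the lowest leptotene and zygotene sum and the lowest pachytene sum. With 3 libraries per group, whether the numbers pair the mice cannot be told. For the log2 ratio of the Ift80 minor intron, alternatives chosen after seeing the data gave −0.63 with the placement of Ift80-208, 0.075 with that of Ift80-201, each of which counts the other's isoforms as unspliced, and −0.64 for Ift80-208 against Ift80-204. Without depth, no counting error can be given, and 3 against 3 libraries limit the precision.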

Other observations

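The Ift88 introns at chr14:57480006-57480656 and chr14:57480808-57481395 (GRCm38), named here after their values were seen, are both kept whole by Ift88-204 and so gave the same values. The unspliced share was 17.5% ± 2.65 in mutants and 11.6% ± 1.37 in controls (SD, n = 3 each), with every mutant above every control, as in 5.98% of all introns tested (log2 ratio difference −0.67, SE 0.21, limma adjusted p = 0.86). Other junctions went the opposite way without overlap. For the Ift74 junction at chr4:94662667-94664215, the isoforms that do not use it held 90.0% ± 2.42 in mutants and 92.9% ± 0.105 in controls. For the Ift88 junction at chr14:57434858-57438241, they held 78.9% ± 4.55 in mutants and 86.4% ± 2.76 in controls. None of these passed limma's test.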
